A study of Homo sapiens with 12 samples.

Results

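Glycolysis turns glucose into pyruvate in the cytosol, and cells that grow fast send much of that pyruvate on to lactate. The 10 genes described here encode the enzymes of its middle and late steps: GPI, ALDOA and TPI1 rearrange and split the sugar, GAPDH, PGK1, PGAM1, ENO1 and PKM carry the trioses to pyruvate with a gain of ATP, and LDHA and LDHB are the subunits of lactate dehydrogenase, which regenerates NAD+. Their mRNAs are among the most abundant of proliferating cells. The genes were chosen by name, and all 10 were found among the 15534 gene rows of the deposited table. In order of the pathway they are GPI (ENSG00000105220, chromosome 19), ALDOA (ENSG00000149925, chromosome 16), TPI1 (ENSG00000111669, chromosome 12), GAPDH (ENSG00000111640, chromosome 12), PGK1 (ENSG00000102144, chromosome X), PGAM1 (ENSG00000171314, chromosome 10), ENO1 (ENSG00000074800, chromosome 1), PKM (ENSG00000067225, chromosome 15), LDHA (ENSG00000134333, chromosome 11), and LDHB (ENSG00000111716, chromosome 12).

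The study asked whether blocking protein arginine methyltransferases alters translation. HEK293T cells, a human embryonic kidney line, were given DMSO (the solvent control), a PRMT1 inhibitor or a PRMT4 (CARM1) inhibitor, which act on enzymes that methylate arginines of RNA-binding and chromatin proteins. Lysates were spun through 10 to 50% sucrose gradients, and each treatment gave 4 libraries: total input, and mRNA carrying 1, 2 and 3 or more ribosomes. There was 1 library for each of the 12 pairs of treatment and gradient sample, so no difference below can be set against the spread between cultures. Compounds, doses and times are not given in the sources used here, and nothing describes the libraries as coming from more than 1 culture.

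Values are FPKM, fragments per kilobase of transcript scaled to the size of the library, as the authors deposited them. Differences are in log2(FPKM + 1) and are centred, meaning that the median of 10805 tested genes was subtracted. For inputs against the DMSO input, the subtracted shift was 0.67 with the PRMT1 inhibitor and 0.57 with the PRMT4 inhibitor. It was 0.68 for the fraction with 3 or more ribosomes against input in DMSO. For the differences of that ratio from DMSO it was -0.73 with the PRMT1 inhibitor and -0.65 with the PRMT4 inhibitor. It lay between -0.06 and 0.02 for comparisons of ribosome fractions. A gene is called higher or lower where its centred difference is at least 1.5-fold. Intervals in brackets are 95% counting intervals from estimated fragments, for the ratio without the added 1, and were computed for the members only. All 10 genes passed the filter of a mean FPKM of at least 1.

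The DMSO input stood apart from the other libraries. Its summed FPKM was 201967, where the others had 329897 to 425444, and 2950 of the tested genes were listed at 0 in it, against 1175 to 2094 in the other 11. The 13 mitochondrially encoded mRNAs took 3.80% of its FPKM, 1.28% of the PRMT4 inhibitor input, 0.0969% of the PRMT1 inhibitor input and 4.79% of the PRMT4 inhibitor fraction with 1 ribosome, and at most 0.354% of the others. The part of these library differences in the results below was not tested. Of 5 genes fixed as marks of the HEK293 line, NEFL and NEFM, 2 neurofilament genes, were above 0 in all 12 libraries, and the 5 together summed to 10.7 to 71.6 FPKM. Of 10 markers of blood cells, hepatocytes, fibroblasts and keratinocytes, only COL1A1 and KRT14 had a row, and each was listed at 0 in at least 9 libraries.

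The sequences upstream of 4 members are shown first, since these genes had the lowest (LDHA, LDHB) and the highest (PGK1, ENO1) difference between the PRMT1 inhibitor and DMSO inputs. Each window runs from 250 bases before to 50 bases after a transcript start (RefSeq, GRCh38.p14), and the first listed window is used for LDHA, which has 2. Capitals mark ACGTG on either strand, the core of the element bound by hypoxia-inducible factors.
LDHA promoter, chr11:18394313-18394612, plus strand: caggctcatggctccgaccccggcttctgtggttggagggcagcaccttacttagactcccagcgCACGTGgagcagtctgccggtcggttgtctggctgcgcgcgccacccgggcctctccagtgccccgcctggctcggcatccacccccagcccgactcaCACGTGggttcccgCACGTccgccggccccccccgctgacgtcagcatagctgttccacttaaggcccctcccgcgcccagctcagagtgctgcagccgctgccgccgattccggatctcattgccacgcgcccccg
LDHB promoter, chr12:21657793-21658092, minus strand: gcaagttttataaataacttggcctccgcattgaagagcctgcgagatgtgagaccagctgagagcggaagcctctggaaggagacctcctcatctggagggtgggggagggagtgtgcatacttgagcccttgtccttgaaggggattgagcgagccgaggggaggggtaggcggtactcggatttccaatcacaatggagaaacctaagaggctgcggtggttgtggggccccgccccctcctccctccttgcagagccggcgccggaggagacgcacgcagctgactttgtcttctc
PGK1 promoter, chrX:78103998-78104297, plus strand: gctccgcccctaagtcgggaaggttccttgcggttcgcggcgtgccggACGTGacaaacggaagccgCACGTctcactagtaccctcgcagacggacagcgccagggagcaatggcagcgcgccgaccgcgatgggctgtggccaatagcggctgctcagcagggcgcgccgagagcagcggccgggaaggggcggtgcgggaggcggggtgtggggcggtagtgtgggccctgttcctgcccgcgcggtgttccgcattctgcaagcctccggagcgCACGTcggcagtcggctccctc
ENO1 promoter, chr1:8878637-8878936, minus strand: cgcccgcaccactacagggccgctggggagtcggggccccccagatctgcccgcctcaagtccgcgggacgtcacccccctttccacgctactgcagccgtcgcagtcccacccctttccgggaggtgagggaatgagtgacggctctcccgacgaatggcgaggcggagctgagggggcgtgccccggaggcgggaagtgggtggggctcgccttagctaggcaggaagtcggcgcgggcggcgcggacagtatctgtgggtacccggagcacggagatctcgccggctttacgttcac
The LDHA window held 2 copies of CACGTG, the E-box bound by MYC, each of which also counts as ACGTG on both strands, and 1 further ACGTG. The PGK1 window held 3 separate copies of ACGTG on one strand or the other, and the LDHB and ENO1 windows held none. Over 14 windows of the 10 members, 8 held ACGTG and 3 held CACGTG, against 21.4% and 7.25% of 35097 windows of the same length over all genes. By gene, 6 of 10 had a window with ACGTG (LDHA, GAPDH, TPI1, ALDOA, GPI and PGK1) and 3 had one with CACGTG (LDHA, GAPDH and ALDOA). The shares above are per window, and the share of all genes with such a window was not computed. ALDOA, LDHA and TPI1 have more than 1 window, and the second of LDHA and the first of TPI1 held neither motif. Members with the motif and without it stood at both ends of the input differences.

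The members' levels differed widely. ALDOA, aldolase A on chromosome 16, was highest with a mean of 257.8 FPKM over the 12 libraries (lowest 124, highest 451), and exceeded LDHB in all 12. LDHB on chromosome 12 followed with a mean of 74.6 FPKM (13.3 to 129.5). GAPDH (50.4 FPKM), PKM (50.1), ENO1 (50.1), PGAM1 (44.0) and TPI1 (43.2) formed a middle group, in which each gene exceeded the next in 6 or 7 of 12 libraries, so their order is not set. GPI (23.3 FPKM) and LDHA (23.1) were lower, and GPI exceeded LDHA in 7 of 12. PGK1 on the X chromosome was lowest at 7.84 FPKM (3.33 to 20.7), and 57.2% of tested genes had a lower mean than it. ALDOA lay above 98.3% of tested genes, and GAPDH, a common reference transcript, above 89.0%. The widest range was that of LDHA, whose highest library was 11.1 times its lowest. The narrowest was that of GPI, at 2.45 times.

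Isoenzymes at the same steps were compared, and the genes of this paragraph were singled out after their values were seen. ALDOA exceeded the brain form ALDOC, ENO1 the neuronal form ENO2, PKM the liver and red cell form PKLR and HK2 the form HK1, each in all 12 libraries. At 3 other steps a form known from muscle or sperm was the higher. PFKM, the muscle phosphofructokinase, had a mean of 389 FPKM, against 4.37 for the liver form PFKL and 8.91 for the platelet form PFKP. GAPDHS, known from sperm, had a mean of 147.8 FPKM and exceeded GAPDH in all 12 libraries. PGAM2, the muscle phosphoglycerate mutase, had a mean of 129 FPKM and exceeded PGAM1 in 11 of 12. ENO3, the muscle enolase, had a mean of 39.9 FPKM, below that of ENO1, which it exceeded in 5 of 12. These 4 muscle or sperm forms share exonic bases with a gene on the other strand, PFKM 628 with SENP1, GAPDHS 924 with TMEM147-AS1, PGAM2 1364 with DBNL and AC017116.1, and ENO3 111 with PFN1, whereas PFKL, PFKP and PGAM1 share none. GAPDH, ENO1, ALDOA, ALDOC, HK1, HK2 and PKLR share such bases too, and ENO2 and PKM share none.

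**Figure D1:**
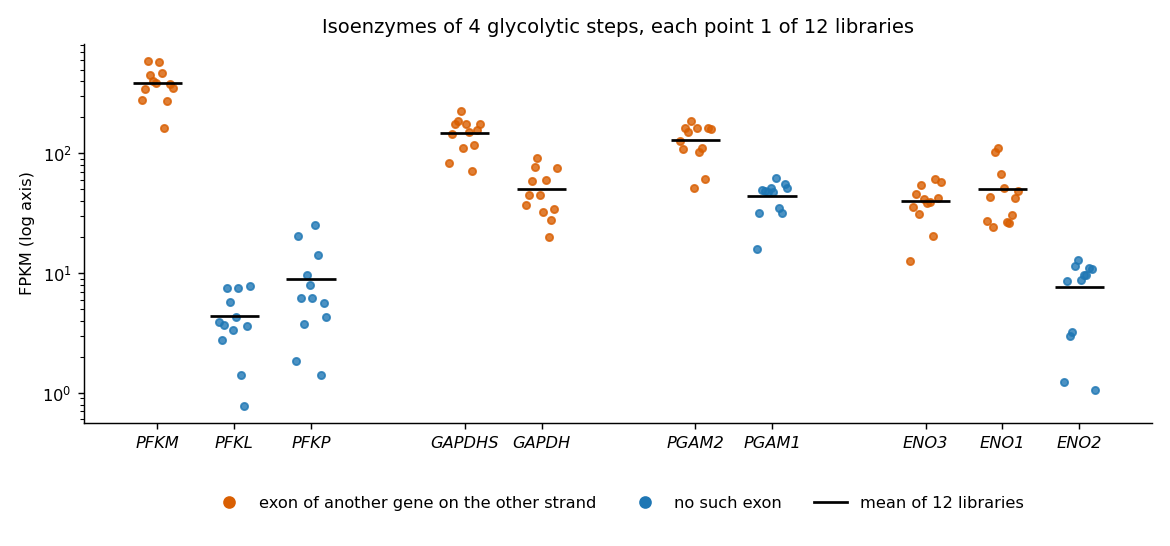
FPKM (log axis) of isoenzymes at 4 steps, each point 1 of 12 libraries and each bar their mean, coloured by whether exonic bases are shared with a gene on the other strand. PFKM, GAPDHS and PGAM2 sit above PFKL, GAPDH and PGAM1, the forms known from most tissues.

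Such sharing with the other strand was found in 84.0% of the 100 rows of highest mean and in 39.3% of all annotated rows. Per the labels' protocols the library kit was directional, and the strand setting of the counting is not given in the sources used here. Among the members, ALDOA shares 520 exonic bases with the antisense gene AC093512.1, GAPDH 422 with AC006064.4, ENO1 126 with ENO1-AS1 and TPI1 14 with SPSB2. GPI, PGK1, PGAM1, PKM, LDHA and LDHB share none. SPSB2 itself was listed at 36.4 to 183.6 FPKM. The values below are those listed under each name, which need not be those of the enzyme's own mRNA, and whether fragments from the other strand contribute was not tested. GENCODE also names 62 GAPDH pseudogenes, 13 of PGAM1, 6 of LDHA and 0 to 5 of each other member, among which fragments could be divided.

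**Figure D2:**
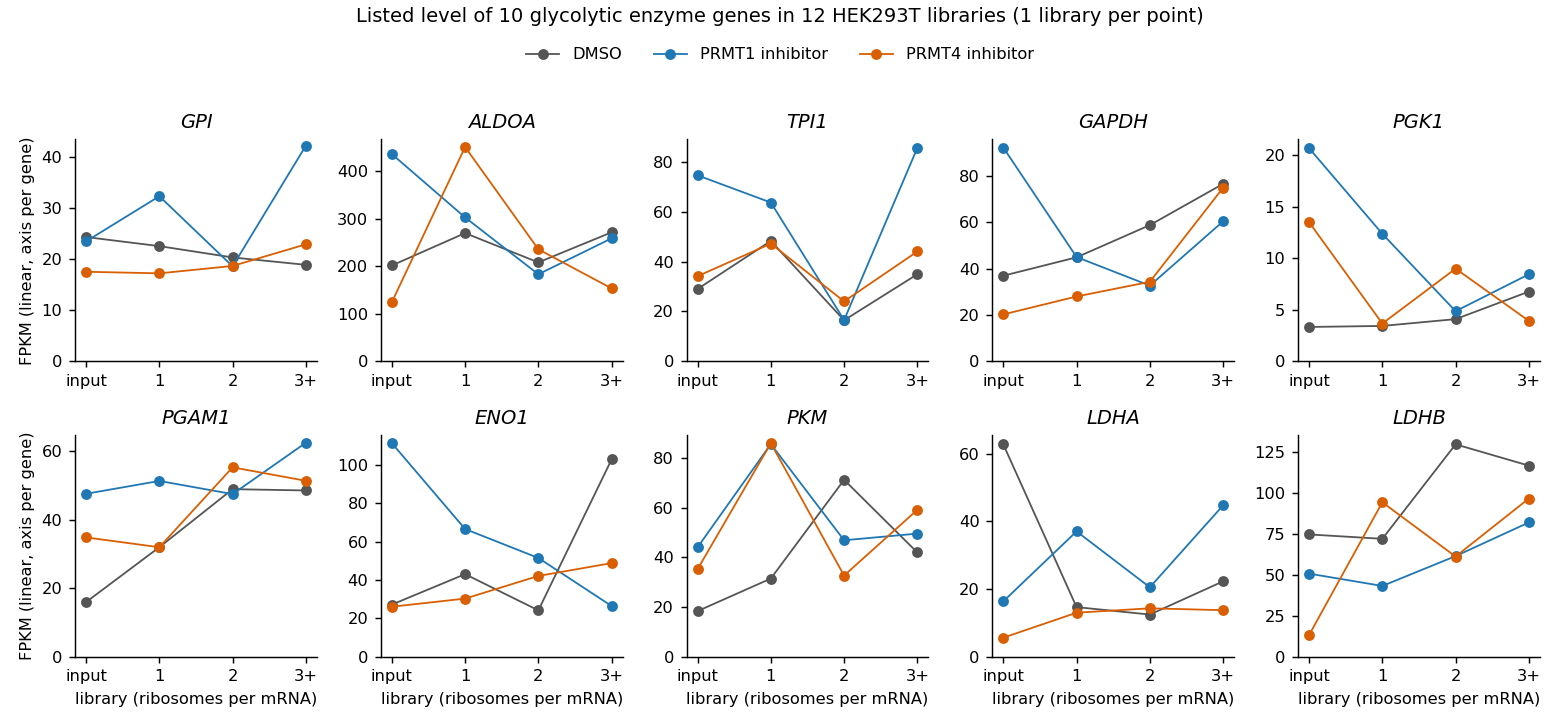
FPKM (linear axis from 0, scaled per gene) of the 10 genes by library, with 1 line per treatment and 1 library per point. The LDHA value of the DMSO input (62.7 FPKM) stands above its other 11 libraries, and the ENO1 lines of DMSO and the PRMT1 inhibitor cross.

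In total input RNA the lactate dehydrogenase genes were listed lower with both inhibitors, while 7 of the other 8 members stood above the median gene with the PRMT1 inhibitor. LDHA, the muscle-type subunit, had 62.7 FPKM in DMSO, 16.4 under PRMT1 inhibition and 5.64 under PRMT4 inhibition. That is a difference of -2.55 (-3.80 to -1.52) and of -3.83 (-5.80 to -2.40), the latter on about 3.53 estimated fragments. LDHB, the heart-type subunit, was at 74.6, 50.7 and 13.3 FPKM, or -1.22 (-1.98 to -0.54) and -2.97 (-4.40 to -2.03). These were the 2 lowest members in both comparisons, which share the DMSO input and are therefore not independent. In lysates of whole cultures, fewer cells with a transcript and less of it per cell cannot be told apart.

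LDHA had its highest value of the 12 libraries in the DMSO input, at 62.7 FPKM. The next highest values, 44.7 and 37.1 FPKM, were those of PRMT1 inhibitor fractions. The other 3 DMSO libraries were at 14.7, 12.5 and 22.3 FPKM with 1, 2 and 3 or more ribosomes, so the DMSO input was above each of them. With the PRMT1 inhibitor the ribosome fractions were at 37.1, 20.5 and 44.7 FPKM, each above its DMSO counterpart, by 1.28 (0.15 to 2.51), 0.68 (-0.66 to 2.04) and 0.97 (0.03 to 1.99). The direction was thus opposite in the input and in all 3 fractions. Under PRMT4 inhibition they were at 13.0, 14.3 and 13.8 FPKM, which differs from DMSO by -0.16, 0.18 and -0.66. LDHA made up 45.7% of the summed LDHA and LDHB FPKM of the DMSO input, and 8.79 to 17.0% of that of the DMSO ribosome fractions. Its share was 24.4% in the PRMT1 inhibitor input and 25.1 to 46.2% in that inhibitor's fractions, above all 3 DMSO fractions.

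LDHB was lower with the PRMT1 inhibitor in all 4 libraries. It was at 71.9, 129.5 and 116.5 FPKM with 1, 2 and 3 or more ribosomes in DMSO. Under the inhibitor it had 43.2, 61.4 and 81.9 FPKM. The differences were -0.72 (-1.46 to -0.01), -1.07 (-1.64 to -0.54) and -0.50 (-1.04 to 0.01), the last short of 1.5-fold. With the PRMT4 inhibitor LDHB was at 94.2, 61.1 and 96.5 FPKM, so that only the fraction with 2 ribosomes was lower by 1.5-fold (-1.07). The 13.3 FPKM of the PRMT4 inhibitor input was the lowest LDHB value of the 12 libraries, and the other 11 began at 43.2.

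**Figure D3:**
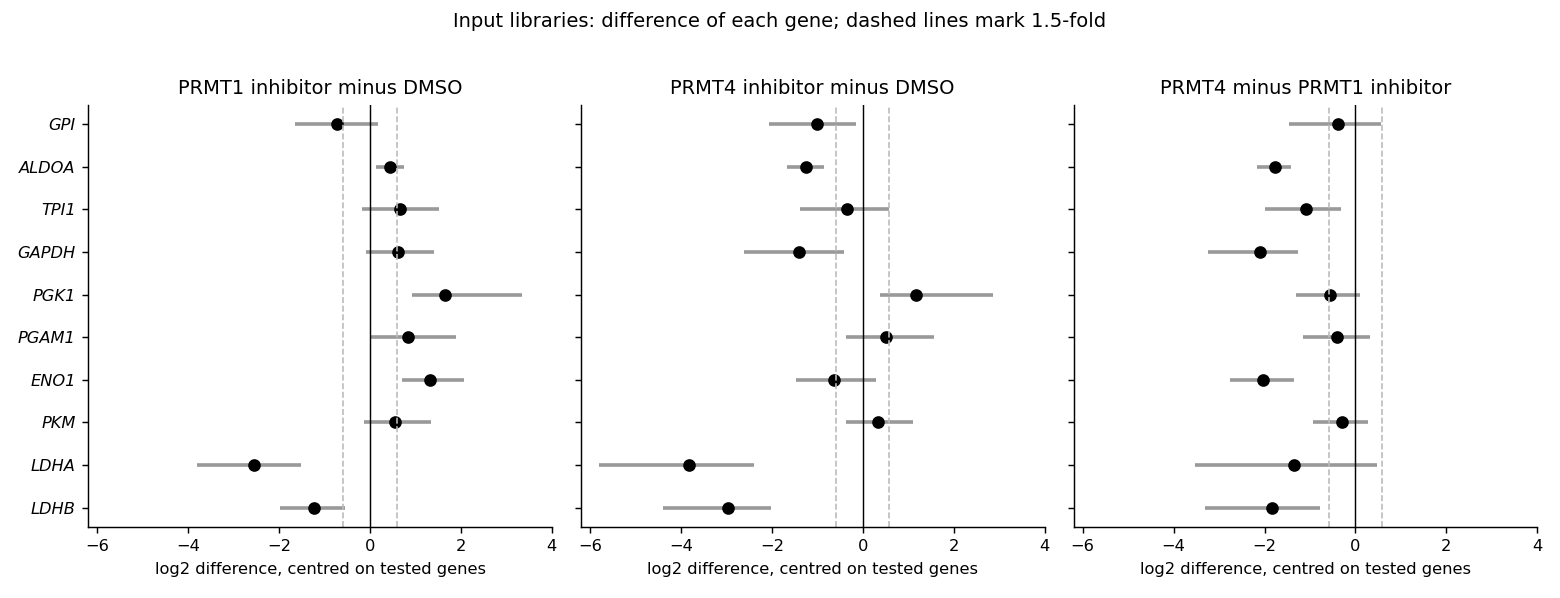
Centred log2 difference between input libraries for each gene (points, 1 library against 1) with 95% counting intervals (grey) and dashed lines at 1.5-fold. LDHA and LDHB lie at the low end against DMSO in both inhibitor inputs, and all 10 points lie below 0 between the inhibitors.

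The enzymes from GAPDH to PKM were all above the median gene in the PRMT1 inhibitor input, by 0.54 to 1.65. PGK1, which makes the first ATP of the pathway, had 3.33 FPKM in DMSO and 20.7 under the inhibitor, a difference of 1.65 (0.93 to 3.34). ENO1, which forms phosphoenolpyruvate, was at 27.2 and 111 FPKM, or 1.32 (0.70 to 2.07). PGAM1 was at 16.0 and 47.6 FPKM, GAPDH at 36.9 and 92.1 and PKM at 18.4 and 44.0, with differences of 0.84, 0.62 and 0.54. The counting interval of PGAM1 began at 0.0039, and those of GAPDH and PKM crossed 0. Among the first enzymes, TPI1 was at 29.03 and 74.7 FPKM (0.66), ALDOA at 201 and 436 (0.43), and GPI at 24.4 and 23.5 (-0.72 centred, -0.05 uncentred). The counting intervals of TPI1 (-0.18 to 1.52) and GPI (-1.65 to 0.16) crossed 0 too.

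By count, 5 members were higher with the PRMT1 inhibitor (TPI1, GAPDH, PGK1, PGAM1 and ENO1) and 3 were lower (GPI, LDHA and LDHB). Of all tested genes 32.6% were higher and 34.7% lower, so the number of members on either side was not far from that share. Their median was 0.58, and 0 for all tested genes by construction.

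With the PRMT4 inhibitor the input count turned the other way, with 6 members lower (GPI, ALDOA, GAPDH, ENO1, LDHA and LDHB) and 1 higher (PGK1). Of all tested genes 26.1% were lower and 36.0% higher, and the members' median was -0.82. ALDOA, which splits fructose-1,6-bisphosphate, had 201 FPKM in DMSO and 124 under the inhibitor, or -1.26 (-1.67 to -0.86). GAPDH was at 36.9 and 20.2 FPKM, or -1.40 (-2.61 to -0.42), and GPI at 24.4 and 17.6, or -1.02 (-2.06 to -0.15). ENO1 was at 27.2 and 26.1 FPKM, -0.62 centred (-1.47 to 0.28) and -0.06 uncentred. PGK1 was at 3.33 and 13.5 FPKM, or 1.178 (0.38 to 2.86). PGAM1 (16.0 and 34.9 FPKM), PKM (18.4 and 35.2) and TPI1 (29.03 and 34.2) were within 1.5-fold after centring. The summed FPKM of the 10 genes was 0.0985% of all FPKM in the PRMT4 inhibitor input, the lowest share of the 12 libraries, against 0.245% in the DMSO input, 0.238% in the PRMT1 inhibitor input and 0.123 to 0.205% in the ribosome fractions.

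The inputs of the 2 inhibitors can be compared without the DMSO input. All 10 members were listed below the median gene with the PRMT4 inhibitor relative to the PRMT1 inhibitor, 6 of them by 1.5-fold (ALDOA, TPI1, GAPDH, ENO1, LDHA and LDHB) and none higher by it, with a median of -1.22. Among all tested genes 36.9% were lower and 32.8% higher, and the subtracted shift was only -0.03. GAPDH was at 92.1 FPKM with the PRMT1 inhibitor and 20.2 with the PRMT4 inhibitor, or -2.11 (-3.25 to -1.26). ENO1 was at 111 and 26.1 FPKM, or -2.02 (-2.77 to -1.35), and ALDOA at 436 and 124, or -1.77 (-2.16 to -1.42). Each of these 3 genes shares exonic bases with a gene on the other strand, and so does TPI1 (-1.08, -1.98 to -0.31). Over the 6 members without one, the median was -0.41 and 2 were lower, LDHA and LDHB. Those values were centred on the 5897 tested genes without one, not on all tested genes. Centred on all tested genes, LDHA was at -1.36 (-3.52 to 0.47) and LDHB at -1.83 (-3.30 to -0.78).

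The ribosome fractions differed from each other in which members were higher or lower. With 1 ribosome, 5 were higher with the PRMT1 inhibitor than in DMSO (PGK1, PGAM1, ENO1, PKM and LDHA) and 1 was lower (LDHB), where 31.3% and 26.1% of tested genes were. PKM, the last enzyme before lactate dehydrogenase, had 31.5 FPKM in DMSO and 85.5 under the inhibitor, or 1.41 (0.93 to 1.99). With 2 ribosomes, 2 were higher (ENO1 and LDHA) and 3 lower (GAPDH, PKM and LDHB), beside 25.5% and 25.2% of tested genes. There PKM was at 71.1 and 46.8 FPKM, opposite to its direction with 1 ribosome. With 3 or more ribosomes, 3 were higher (GPI, TPI1 and LDHA) and 1 lower (ENO1), beside 26.4% and 26.0%. GPI was at 18.9 and 42.3 FPKM, or 1.12 (0.34 to 1.98), and TPI1 at 34.9 and 85.7, or 1.27 (0.56 to 2.09). The medians over the 10 were 0.56, -0.08 and 0.26.

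With the PRMT4 inhibitor, 2 members were higher with 1 ribosome (ALDOA and PKM) and 1 was lower (GAPDH), beside 29.3% and 28.3% of tested genes. PKM had 31.5 FPKM in DMSO and 85.9 under the inhibitor, or 1.42 (0.91 to 1.99), close to its value with the PRMT1 inhibitor against the same DMSO library. ALDOA was at 269.6 and 451 FPKM, or 0.74 (0.47 to 1.02), opposite to the input. With 2 ribosomes, 2 were higher (PGK1 and ENO1) and 3 lower (GAPDH, PKM and LDHB), beside 28.3% and 23.5%. The names of these 3 are those of the PRMT1 inhibitor's list, and both counts rest on the same DMSO library, in which these genes were at 58.7, 71.1 and 129.5 FPKM. With 3 or more ribosomes, none was higher and 4 were lower (ALDOA, PGK1, ENO1 and LDHA), beside 28.2% and 26.5%. ALDOA was at 271 and 153 FPKM, or -0.82 (-1.18 to -0.47). The medians were -0.02, 0.18 and -0.15.

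**Figure D4:**
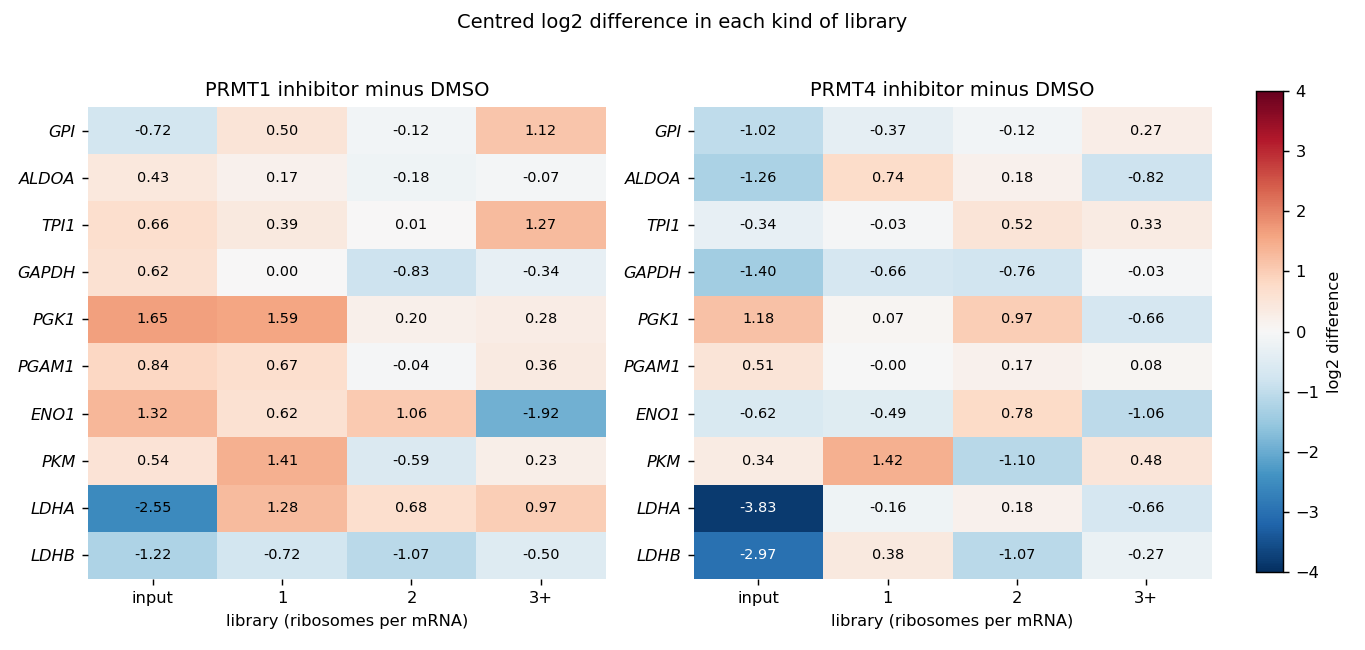
Centred log2 difference of each inhibitor from DMSO (colour and printed value) for the 10 genes in the input and in mRNA with 1, 2 and 3 or more ribosomes, 1 library against 1 in each cell. LDHA with the PRMT1 inhibitor is -2.55 in the input and 0.68 to 1.28 in the 3 fractions.

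Gradient position compares the fraction with 3 or more ribosomes with that of 1 ribosome, as a log2 ratio within a treatment, and uses no input library. In DMSO, 6 members lay toward 3 or more ribosomes by 1.5-fold (GAPDH, PGK1, PGAM1, ENO1, LDHA and LDHB) and none toward 1 ribosome, where 30.8% and 36.0% of tested genes did. The median was 0.59. ENO1 was highest, with 43.1 FPKM on 1 ribosome and 103 on 3 or more, or 1.25 (0.71 to 1.84). GAPDH was at 44.8 and 76.5 FPKM, or 0.77 (0.10 to 1.52), and LDHB at 71.9 and 116.5, or 0.70 (0.16 to 1.26). These 3 were the only members whose counting interval stayed off 0. The first 3 enzymes had no such lean, with ALDOA at 0.02, GPI at -0.23 and TPI1 at -0.44.

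The gradient position of ENO1 lay on opposite sides of 0 in DMSO and with the PRMT1 inhibitor. ENO1 then had 66.7 FPKM on 1 ribosome, 51.6 on 2 and 26.5 on 3 or more, or -1.24 (-2.01 to -0.54), a difference from DMSO of -2.498 (-3.43 to -1.67). Under PRMT4 inhibition it was at 30.4, 42.2 and 48.9 FPKM, a position of 0.72 (-0.01 to 1.51). PKM was lower with both inhibitors, from 0.42 in DMSO to -0.71 and -0.48, differences of -1.14 (-1.88 to -0.45) and -0.96 (-1.68 to -0.27). In PKM the FPKM differed with 1 ribosome (31.5 FPKM in DMSO, 85.5 and 85.9 with the inhibitors) more than with 3 or more (41.9, 49.5 and 59.1). ALDOA was at -0.16 with the PRMT1 inhibitor and at -1.50 (-1.84 to -1.18) with the PRMT4 inhibitor, a difference from DMSO of -1.58 (-2.02 to -1.15), and it has the most estimated fragments of the members (82.0 to 269 per library). GAPDH had a position above 0 under every treatment, at 0.77, 0.48 and 1.44, as did PGAM1, at 0.60, 0.34 and 0.72. So did LDHB, at 0.70, 0.97 and 0.08, and LDHA, at 0.59, 0.33 and 0.12. Counting intervals crossed 0 under every treatment for PGAM1 and LDHA. They also did for GAPDH with the PRMT1 inhibitor and for LDHB with the PRMT4 inhibitor. The share of all tested genes above 0 under every treatment was not computed.

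**Figure D5:**
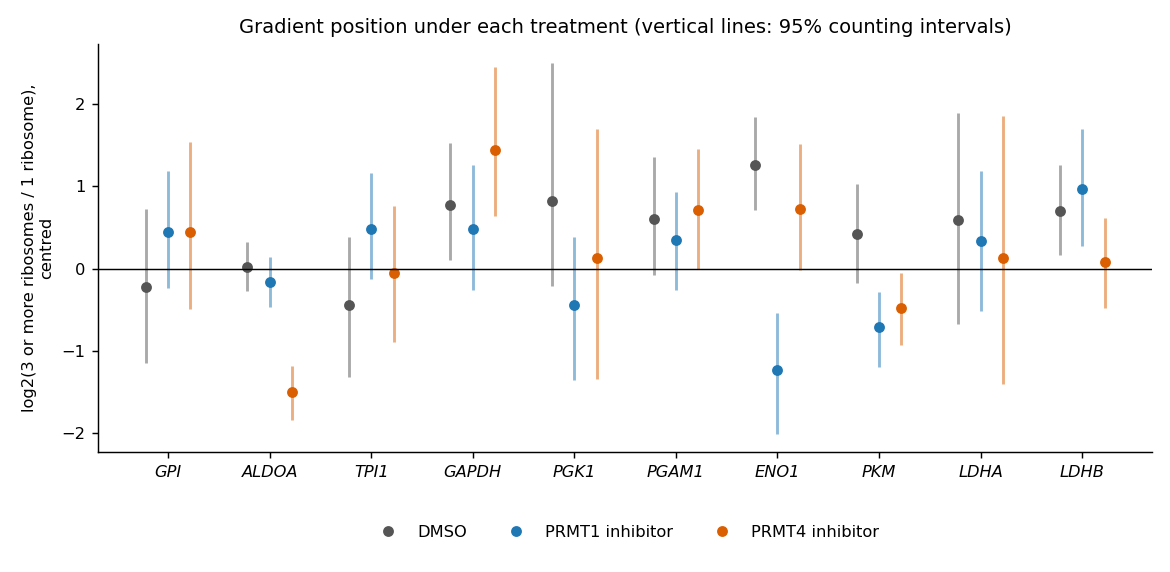
Gradient position (centred log2 ratio, 3 or more ribosomes over 1) of each gene under 3 treatments, 1 pair of libraries per point, with 95% counting intervals as vertical lines. ENO1 is at 1.25 in DMSO and -1.24 with the PRMT1 inhibitor, and ALDOA is at -1.50 with the PRMT4 inhibitor.

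Counted against DMSO, gradient position was higher for 2 members (GPI and TPI1) and lower for 3 (PGK1, ENO1 and PKM) with the PRMT1 inhibitor, beside 33.7% and 35.0% of tested genes. With the PRMT4 inhibitor it was higher for 2 (GPI and GAPDH) and lower for 5 (ALDOA, PGK1, ENO1, PKM and LDHB), beside 35.1% and 34.3%. The medians were -0.27 and -0.55. Both differences subtract the DMSO position, in which 6 members were high and none low.

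Polysome association sets the fraction with 3 or more ribosomes against input, as a log2 ratio, and carries the input values again. In DMSO 2 members were higher (PGAM1 at 0.87 and ENO1 at 1.20) and 2 lower (GPI at -1.03 and LDHA at -2.13), beside 34.4% and 37.3% of tested genes, with a median of 0.06. Against DMSO, 4 were higher with the PRMT1 inhibitor (GPI, TPI1, LDHA and LDHB) and 3 lower (GAPDH, PGK1 and ENO1), beside 36.2% and 35.9%, with a median of -0.34. With the PRMT4 inhibitor 5 were higher (GPI, TPI1, GAPDH, LDHA and LDHB) and 1 lower (PGK1), beside 37.4% and 37.1%, with a median of 0.63. Uncentred, the medians of these differences from DMSO were -1.07 with the PRMT1 inhibitor and -0.01 with the PRMT4 inhibitor. LDHA had the highest difference with both inhibitors, at 3.58 and 3.25. Its FPKM with 3 or more ribosomes went from 22.3 in DMSO to 44.7 and 13.8, so in the second case the ratio was higher while the numerator was lower.

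The 10 genes did not share one profile. Over the 12 libraries the Pearson correlation of centred log2 values between 2 members ranged from -0.60 (PGK1 and LDHB) to 0.85 (GPI and LDHA), with a median of 0.21 over 45 pairs. These are descriptions over libraries that share treatments and gradients. The 5 genes most like the members' mean profile, among 5952 whose mean FPKM reached 5, were TMPO (r = 0.89), FAF2 (0.89), GRK6 (0.88), SNAP47 (0.86) and APRT (0.85), each over 12 libraries. TMPO, GRK6 and SNAP47 share exonic bases with a gene on the other strand.

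Of the other glycolytic isoenzymes, 18 of 21 had a row and 16 passed the filter, with 6 higher and 5 lower in the PRMT1 inhibitor input, beside 32.6% and 34.7% of tested genes, and 6 higher and 6 lower in that of the PRMT4 inhibitor, beside 36.0% and 26.1%. HK2, a hexokinase, had 14.8 FPKM in the DMSO input, 55.3 with the PRMT1 inhibitor and 18.5 with the PRMT4 inhibitor. Its differences were 1.16 and -0.26. PFKM was at 276, 399 and 161 FPKM, or -0.15 and -1.34, and ENO2, the neuronal enolase, at 1.23, 11.5 and 9.72, or 1.81 and 1.70. Both ENO2 differences rest on the low DMSO value of 1.23 FPKM, and no counting interval was computed for them. In the transport list, 5 of 8 genes passed the filter. SLC16A1, a lactate carrier also named MCT1, was at 4.37, 34.8 and 9.19 FPKM (2.06 and 0.36), and SLC2A1, the glucose carrier GLUT1, at 21.0, 35.0 and 13.4 (0.03 and -1.179). SLC16A3, the lactate exporter MCT4, was at 30.2, 76.1 and 98.1 FPKM (0.63 and 1.10). All 3 carriers share exonic bases with a gene on the other strand, as do PDK1 and PDHA1. PDK1, a kinase that restrains pyruvate dehydrogenase, was at 22.3, 30.1 and 9.06 FPKM (-0.26 and -1.78), whereas PDHA1, a subunit of that enzyme, was at 10.1, 17.5 and 60.2 (0.06 and 1.90).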

How the data were processed

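RNA from HEK293T cells was measured in 12 libraries, 1 for each of 3 treatments and 4 gradient samples. The submitters' processing notes name cutadapt 1.18, STAR 2.5.3a, RSEM and GRCh37. The deposited values are FPKM per Ensembl gene, rounded to 2 decimals by the authors. Columns R1, R2 and R3 were taken as the ribosome numbers in the sample titles, and each ribosome value rests on that reading.

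Of 15534 rows, 15299 matched a symbol. Differences are in log2(FPKM + 1), a scale that understates those of low genes, and each difference was centred on the median of the 10805 genes that passed a minimum mean FPKM of 1. A group is 1 library, so p-values are not given. The members and lists were chosen with earlier results of these data known. The 10 members were always named. Other pathway genes were named at a mean FPKM of 5 or more and a 2-fold difference in an inhibitor input, with exceptions stated in the text.

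The files give no counts. For 734 genes with 1 annotated transcript of at least 2 kb, FPKM multiplied by the length in kilobases fell in steps. These put 1 fragment at a product of 1.73 to 2.41, depending on the library. Fragments per member were estimated from those steps and the shortest principal transcript in GENCODE release 29 (GRCh38, used for names, lengths and strand overlaps only). Intervals of 95% (exact Clopper-Pearson between 2 libraries, Poisson variance on the log scale for differences of ratios) cover counting error only, and reads are not known to be independent molecules. The steps and differences were tested on simulated data. Computation used Python 3.11.15, pandas 2.3.3, numpy 2.4.6 and scipy 1.17.1.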

Additional observations from a re-analysis of the deposited data

Results flagged for a closer look

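LDHA stood out because its difference with the PRMT1 inhibitor had one direction in the input and the other in all 3 ribosome fractions. Its centred log2 difference from DMSO was -2.55 in the input and 1.28, 0.68 and 0.97 with 1, 2 and 3 or more ribosomes. The difference between input and fractions was not tested, because each value rests on 1 library against 1. The DMSO input enters only the first value.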

How the results depend on the processing

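No paired analysis was possible because each group has 1 library, so that no replicate numbers join libraries across treatments. A fit with the gradient samples as blocks was not run. Of 72 recomputed medians, 60 stayed within the counting error of a median. Without centring, the medians were 1.26 (input, PRMT1 inhibitor), -0.25 (input, PRMT4 inhibitor), 0.74 (polysome association, DMSO) and -1.07 (its difference with the PRMT1 inhibitor), and the difference in polysome association with the PRMT4 inhibitor changed sign, to -0.014. The difference of TPI1 in polysome association with the PRMT1 inhibitor also changed sign, from 0.66 to -0.063. With no minimum FPKM, the medians were 1.06 and -0.40 for the 2 inputs and 0.50 for polysome association in DMSO. Over the members and tested genes without an opposite-strand exon, the inputs gave -0.0213 (PRMT1 inhibitor), -0.16 (PRMT4 inhibitor) and -0.41 (PRMT4 minus PRMT1 inhibitor), and polysome association with the PRMT1 inhibitor 0.21. The members then number 6. Gradient position medians stayed within counting error under all 8 alternatives. Of the recomputed counts of members, 107 stayed within 1.5 times and 37 did not. The 5 higher in the PRMT1 inhibitor input were 2 or 3 with pseudocount 0.1, upper-quartile scaling, a minimum of 5 or 50 and among members without an opposite-strand exon, and the 3 lower were 1 without centring. The 6 lower with the PRMT4 inhibitor were 3 against DMSO and 2 against the PRMT1 inhibitor among members without an opposite-strand exon, and the 1 higher was 2 or 3 without centring, with no minimum, with pseudocount 5 or among those members. The 6 higher in gradient position in DMSO were 3 with pseudocount 5 and 3 among those members. Against DMSO, the 2 higher in gradient position were 1 with the PRMT1 inhibitor and 0 with the PRMT4 inhibitor with pseudocount 5, and the 5 lower with the latter were 3. Without centring, polysome association had 6 higher and 1 lower in DMSO, and its differences from DMSO had 2 higher and 6 lower with the PRMT1 inhibitor and 3 lower with the PRMT4 inhibitor. The causes of these moves, other than the smaller set of members, were not tested. Depth limits LDHA and PGK1 most, at medians of 10.1 and 14.8 estimated fragments over the libraries.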

Other observations

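Genes around glycolysis gave mixed values. In the pentose phosphate list, all 7 genes passed the filter, and gradient position against DMSO was higher for 5 with the PRMT1 inhibitor and for 7 with the PRMT4 inhibitor, beside 33.7% and 35.1% of tested genes. TKT, transketolase, was at 973, 1423 and 806 FPKM with 1, 2 and 3 or more ribosomes in DMSO, at 868, 1481 and 913 with the PRMT1 inhibitor and at 807, 1650.2 and 1160 with the PRMT4 inhibitor. It is named here after its values were seen, as the member of that list with the highest level.

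Of 14 targets of hypoxia-inducible factors outside glycolysis, 11 passed the filter, with 1 higher and 6 lower in the PRMT1 inhibitor input, beside 32.6% and 34.7% of tested genes, and 5 higher and 3 lower in that of the PRMT4 inhibitor, beside 36.0% and 26.1%. BNIP3L, a mitophagy receptor on the list, was at 5.61 FPKM in the DMSO input, 9.45 with the PRMT1 inhibitor and 59.5 with the PRMT4 inhibitor. NDRG1, a hypoxia-induced gene, was at 4.48 and 1.79 FPKM and was listed at 0 in the PRMT4 inhibitor input. The gluconeogenesis list had 4 of 7 genes in the table, with 0 higher and 2 lower in the PRMT1 inhibitor input and 2 and 2 in that of the PRMT4 inhibitor, to be read beside the same shares of tested genes (32.6% and 34.7%, then 36.0% and 26.1%). Of 12 genes of pyruvate dehydrogenase and its kinases 10 passed the filter, with 3 higher and 3 lower in the first input (32.6% and 34.7% of tested genes) and 4 higher and 3 lower in the second (36.0% and 26.1%).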
